A study of Mus musculus with 8 samples.

Results

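The genes described here encode the machinery that stores transmitter in synaptic vesicles and releases it: synaptotagmins, synapsins, vesicle membrane proteins, SNARE proteins, complexins, priming factors, active zone scaffolds and the proteins that take SNARE complexes apart. They are a list of 50 genes, taken by symbol, whose probes were found by matching the RefSeq accessions of the array to symbols. Of the 50, 49 had a probe and 46 had a signal that could be tested, out of 19232 genes tested on the array. Syt5 matched no probe. Syt2 and Syt12 were not well above background on any array, and Syt17 was well above background on 1 V/SVZ array only, so none of these 3 was tested.

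The series compared 2 hand-dissected layers of the neocortex of ICR mouse embryos at embryonic day 16, the ventricular and subventricular zone (V/SVZ) and the cortical plate (CP), with 4 samples of each. The V/SVZ lines the ventricle and holds dividing progenitors and newborn neurons, and the CP is the outer layer in which postmitotic neurons settle. No treatment, transgene or mutation is named for either group. The labels do not say whether the 4 samples of a layer came from separate embryos or litters, so the spread behind each p-value is that of these 4 samples and could be technical. Total RNA from each sample was labelled with Cy3 and hybridised to a 1-colour Agilent array.

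A synaptic vesicle fuses with the plasma membrane when a vesicle SNARE (VAMP, synaptobrevin) zips together with the target membrane SNAREs syntaxin and SNAP-25. Munc13 and RIM proteins ready the vesicle at the active zone, complexin clamps and assists the assembled SNAREs, and synaptotagmin senses calcium and triggers fusion, after which NSF and the SNAP adaptors recycle the SNAREs. Several of these proteins belong to families in which some members act mainly at neuronal synapses and others in secretion or membrane traffic of many cell types. Many neuronal genes of this kind are repressed outside neurons by the factor REST, which binds a bipartite DNA element.

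Promoter windows, from 250 bases before to 50 bases after the annotated start, were found for 36 of the 50 genes (RefSeq, assembly GRCm38.p6). These genes had 47 windows, as a gene can have several. On both strands, the left part of the REST element (TTCAGCACC) was found in 2 of the 47 (Syn1 and Unc13a), against 0.371% of all 32851 windows. The right part (GGACAGC) was found in 5 of the 47 (Unc13a, Syt6 and Sypl), against 6.56% of all windows. Windows and not sites were counted, and 2 of the Syt6 windows overlap and hold the same copy. The cyclic AMP response element (TGACGTCA) was found in 2 of the 47 (Syn1 and Napa), against 1.79% of all windows. The TATA box (TATAAA) was found in 4 of the 47 (Stx2, Stx3 and Sv2b), against 13.6% of all windows. The matches shown here do not overlap. A match describes the letters of the window and shows no binding, and a window without a match says only that these letters are not in it. Windows of 3 genes are shown 5′ to 3′ on the gene's strand, with the matches in capitals, to show the rare left part (Syn1 and Unc13a) and the right part alone (Sypl). The genes with the left part, Syn1 (-2.45) and Unc13a (-2.09), were higher in CP, and so was Napa (-0.36), with the cyclic AMP element. Of the genes with the right part alone, Syt6 was higher in CP (-2.96) and Sypl higher in V/SVZ (0.75). Of those with the TATA box, Stx3 (-2.22) and Sv2b (-5.79) were higher in CP and Stx2 (0.90) higher in V/SVZ. No relation between a match and a difference was tested. Syn1, encoding a protein that tethers synaptic vesicles, is at chrX:20920869-20921168 on the minus strand, and its capitals mark the left part and the cyclic AMP element. Unc13a, encoding the priming factor Munc13-1, is at chr8:71671708-71672007 on the minus strand, and its capitals mark both parts, which lie on the opposite strand to the gene with 8 bases between them. Sypl, encoding a relative of the vesicle protein synaptophysin found in many cell types, is at chr12:32953695-32953994 on the plus strand, and its capitals mark the right part on the opposite strand.
Syn1: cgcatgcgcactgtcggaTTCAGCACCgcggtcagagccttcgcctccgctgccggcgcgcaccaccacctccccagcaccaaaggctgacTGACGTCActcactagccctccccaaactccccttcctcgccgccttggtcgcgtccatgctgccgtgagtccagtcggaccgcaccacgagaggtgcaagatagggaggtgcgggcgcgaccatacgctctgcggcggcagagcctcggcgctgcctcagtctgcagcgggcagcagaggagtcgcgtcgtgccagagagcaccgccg
Unc13a: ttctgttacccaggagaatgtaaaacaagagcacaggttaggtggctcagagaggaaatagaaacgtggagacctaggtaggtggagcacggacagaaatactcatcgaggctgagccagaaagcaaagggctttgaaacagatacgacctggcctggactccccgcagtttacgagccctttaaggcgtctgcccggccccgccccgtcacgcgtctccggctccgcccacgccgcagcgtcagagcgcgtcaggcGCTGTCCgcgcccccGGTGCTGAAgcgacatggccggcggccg
Sypl: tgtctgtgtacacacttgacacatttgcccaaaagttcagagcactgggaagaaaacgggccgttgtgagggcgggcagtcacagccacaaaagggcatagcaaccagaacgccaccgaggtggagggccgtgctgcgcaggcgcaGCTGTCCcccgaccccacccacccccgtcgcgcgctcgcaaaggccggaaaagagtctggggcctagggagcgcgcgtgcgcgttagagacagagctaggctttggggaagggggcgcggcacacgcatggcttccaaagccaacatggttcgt

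Levels are log2 of the array's processed signal minus the 75th percentile of that array, so 0 is the signal at that percentile. Differences are V/SVZ minus CP, so a negative value is higher in CP. This direction follows the labels of the scanner files and is opposite to that of the column names in the authors' deposited table, where each column matched the same-numbered array of the other layer. A gene is called where limma's test, adjusted by Benjamini-Hochberg over all 19232 genes, gave a p under 0.05. Levels of different genes come from different probes and are not set against each other, whereas differences between layers are.

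Per array, 58.4% to 62.9% of gene probes passed the scanner's test of being well above background. Correlations over probes were 0.992 to 0.995 within V/SVZ, 0.996 to 0.997 within CP and 0.880 to 0.897 between the layers. By the headers each layer filled a slide of its own, so slide and layer cannot be told apart. The dissected layers matched their labels: 10 of 10 progenitor markers were higher in V/SVZ and 10 of 10 markers of postmitotic cortical neurons were higher in CP.

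Most of the release machinery was higher in CP. Of the 46 genes tested, 35 (76.1%) were called higher in CP, against 44.6% of all genes tested, and 6 (13%) were called higher in V/SVZ, against 35.0%. The other 5, Syn2, Sv2c, Vamp1, Vamp4 and Rims3, were not called. The median difference of the 46 was -1.54, beside -0.09 over all genes. These counts include 5 genes, Syt7, Sv2b, Stx3, Doc2b and Rims1, that passed the filter through CP and missed the background test on at least 1 V/SVZ array. Of the 41 genes measured on all 8 arrays, 30 were called higher in CP and 6 higher in V/SVZ, with a median of -1.05. The shares over all genes given here belong to the looser filter, and none was taken under this stricter filter. At 2-fold or more, 27 genes (58.7%) were called higher in CP, against 16.5% of all genes, and 2 were called higher in V/SVZ, against 13.7%. A difference of 8-fold or more towards CP was seen for 6 genes, Syt1, Syt4, Syt7, Sv2b, Cplx1 and Doc2b, against 3.21% of all genes. Of these 6, Syt7, Sv2b and Doc2b were near or below background in V/SVZ, so their size there is uncertain. In either direction 41 of the 46 were called, against 79.5% of all genes. The 4 values of one layer did not overlap the 4 of the other in 41 of the 46 genes (89.1%), against 75.2% of all genes. The 6 genes called higher in V/SVZ were Vamp3, Stx4a, Stx2, Sypl, Syt11 and Unc13b, which are spread over 5 of the roles below.

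**Figure D1:**
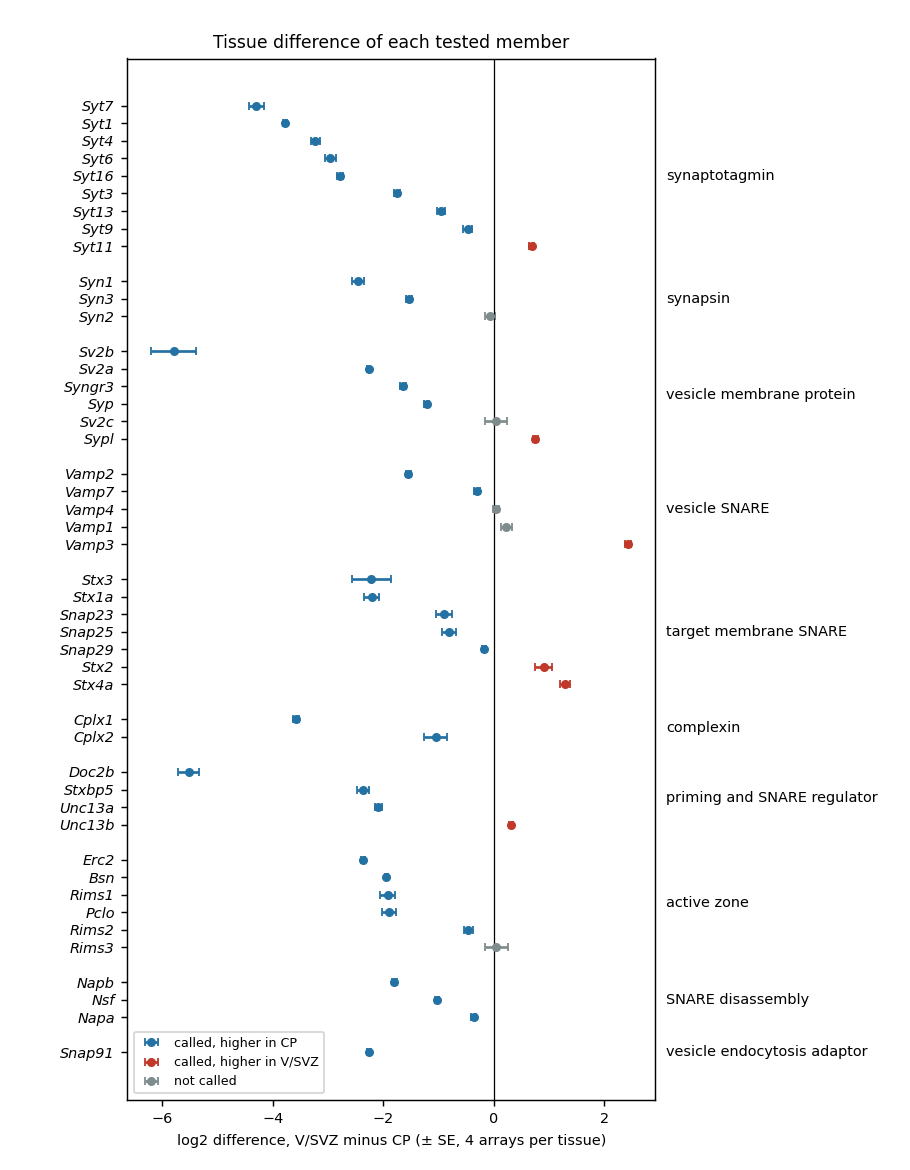
Difference between layers of each of the 46 genes tested, by role (x axis, log2, V/SVZ minus CP; points are differences and bars the standard error over 4 arrays per layer). The 35 genes called higher in CP lie left of 0, the 6 called higher in V/SVZ lie right of it, and the 5 not called lie near it.

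The 8 arrays split by layer in nearly all genes. The median level over the 46 genes ran from -0.72 to -0.64 on the V/SVZ arrays and from 0.91 to 1.07 on the CP arrays. The summed level of the 10 neuronal markers, in percent of the 75th percentile signal, ran from 6195 to 6818 in V/SVZ and from 23155 to 24195 in CP, with Nefl alone among them too dim to be measured in V/SVZ. The summed level of the 10 progenitor markers ran from 22947 to 23793 in V/SVZ and from 1125 to 1281 in CP, where Pax6 was not well above background. The part of these cell types in the differences below was not tested, and in bulk tissue fewer cells of a type and less RNA per cell cannot be told apart. Among markers of other cells, V/SVZ had the higher level for 6 of 8 microglial genes and for the 3 blood genes that could be tested. CP had it for 6 of 6 Cajal-Retzius genes, of which Trp73 alone (-0.74) passed the background test on each of the 8 arrays. In V/SVZ, Reln and Lhx1 passed it on 2 arrays, Ndnf on 1, and Calb2 and Lhx5 on none. These genes passed the filter through CP, a route that favours a difference towards CP. The microglial gene Fcgr3 passed it through V/SVZ, with 1 CP array above background. Of the 9 interneuron genes, 6 were higher in CP and 3 in V/SVZ.

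**Figure D2:**
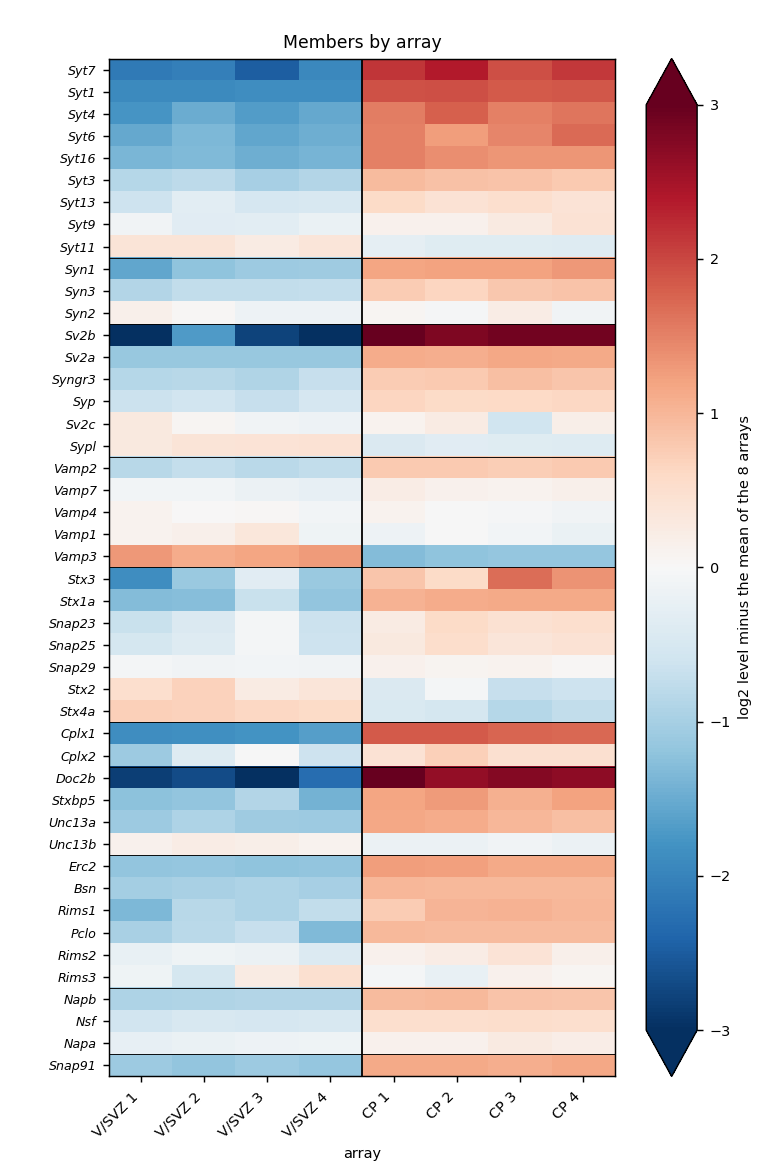
Level of each of the 46 genes on each of the 8 arrays (colour, log2 level minus the gene's mean over the 8 arrays; rows are genes in role order and columns are arrays). Most rows turn from blue on the V/SVZ arrays to red on the CP arrays, and the rows of Vamp3, Stx4a, Stx2, Sypl, Syt11 and Unc13b turn the other way.

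Synaptotagmins are vesicle proteins with paired C2 domains, several of which bind calcium. Of 13 listed, 9 were tested, and 8 were called higher in CP and 1 in V/SVZ, with a median difference of -2.77. Syt1, the sensor of fast synchronous release, measured -0.14, -0.15, -0.09 and -0.10 in V/SVZ replicates 1 to 4 and 3.67, 3.71, 3.61 and 3.63 in CP. It was 13.7-fold higher in CP (-3.77 ± 0.04 SE, 4 arrays per layer, limma adjusted p = 3.43e-10), with hardly any spread within a layer. Syt7, a high-affinity sensor linked to asynchronous release, measured -5.94, -5.87, -6.29 and -5.74 in V/SVZ and -1.65, -1.43, -1.88 and -1.69 in CP. It was called higher in CP (-4.30 ± 0.13, limma adjusted p = 2.43e-08), but it was well above background on only 1 V/SVZ array. Its 19.7-fold difference became 8.55-fold with normexp background correction, where it was smaller than those of Syt1 (11.9-fold) and Syt4 (9.07-fold).

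Syt4 and Syt11 form a closely related pair of synaptotagmins. Syt4 measured -1.31, -1.04, -1.22 and -1.10 in V/SVZ and 1.99, 2.25, 1.97 and 2.05 in CP. Syt11 measured 4.22, 4.23, 4.10 and 4.21 in V/SVZ and 3.58, 3.48, 3.49 and 3.46 in CP. Neither gene overlapped between layers, and they lay in opposite order: Syt4 was 9.41-fold higher in CP (-3.23 ± 0.08, limma adjusted p = 8.31e-09) and Syt11 was 1.61-fold higher in V/SVZ (0.69 ± 0.04, limma adjusted p = 2.09e-06). The other synaptotagmins were higher in CP by differences that ran from Syt6 (-2.96) and Syt16 (-2.77) through Syt3 (-1.75) and Syt13 (-0.95) to Syt9 (-0.47).

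Synapsins coat vesicles and hold them in the reserve pool. Of the 3, Syn1 and Syn3 were called higher in CP, and Syn2 was not called. Syn1 measured 0.62, 0.97, 1.09 and 1.11 in V/SVZ and 3.36, 3.39, 3.39 and 3.47 in CP, a 5.47-fold difference (-2.45 ± 0.11, limma adjusted p = 1.63e-07). Syn3, which is expressed early in neuronal development, had a difference of -1.54 ± 0.06. Syn2 measured 0.99, 0.88, 0.69 and 0.69 in V/SVZ and 0.91, 0.82, 1.06 and 0.76 in CP by its brighter probe, made to NM_013681, and the layers overlapped (-0.07 ± 0.09, limma adjusted p = 0.488). A dimmer Syn2 probe, made to NM_001111015, measured -1.58, -1.75, -1.97 and -1.70 in V/SVZ and -3.56, -3.71, -3.68 and -3.75 in CP. By that probe Syn2 was higher in V/SVZ (1.92), with no overlap, so the direction of Syn2 rests on the probe.

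The vesicle membrane proteins include synaptophysin (Syp), the SV2 proteins and synaptogyrin 3 (Syngr3). Of the 6 tested, 4 were called higher in CP, 1 in V/SVZ and 1 was not called. Syp, the classical marker of synaptic vesicles, measured 1.09, 1.16, 1.06 and 1.24 in V/SVZ and 2.38, 2.31, 2.34 and 2.37 in CP (-1.21 ± 0.05). Sypl, its relative outside synapses, measured 0.43, 0.52, 0.54 and 0.56 in V/SVZ and -0.29, -0.20, -0.23 and -0.24 in CP (0.75 ± 0.04, limma adjusted p = 5.75e-07). The pair thus lay in opposite order, each without overlap, and a second Sypl probe gave 0.99. Syngr3 had a difference of -1.65.

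The 3 SV2 genes, which encode vesicle glycoproteins, did not share one pattern. Sv2a measured -0.79, -0.78, -0.78 and -0.78 in V/SVZ and 1.48, 1.45, 1.52 and 1.49 in CP (-2.26 ± 0.03, limma adjusted p = 4.42e-10). Sv2b measured -7.62, -6.02, -7.11 and -8.16 in V/SVZ, where no array had it well above background, and -1.35, -1.53, -1.44 and -1.45 in CP. Sv2b entered the test through CP alone, and its size in V/SVZ is not known. The call (limma adjusted p = 3.34e-06) belongs to the fitted difference of -5.79, which uses those V/SVZ values. Against the lowest signals that passed the background test it was at least 25.9-fold higher in CP, a bound that was not itself tested. That bound holds on this scale only, as the fitted fold was 11.9 with normexp, which adds an offset to each signal. Sv2c measured -4.52, -4.77, -4.93 and -4.98 in V/SVZ and -4.72, -4.56, -5.41 and -4.65 in CP, and the layers overlapped (0.04 ± 0.20, limma adjusted p = 0.863).

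Vesicle SNAREs, the VAMP proteins, were the most divided role, with 2 genes called higher in CP, 1 in V/SVZ and 2 not called, and a median of 0.04. Vamp2, the main synaptobrevin of forebrain synapses, measured 1.74, 1.86, 1.75 and 1.83 in V/SVZ and 3.35, 3.34, 3.31 and 3.35 in CP (-1.54 ± 0.04, limma adjusted p = 7.45e-09). Vamp3, or cellubrevin, the VAMP of endosomal recycling in many cell types, measured -0.48, -0.65, -0.60 and -0.49 in V/SVZ and -3.08, -2.99, -2.94 and -2.94 in CP. Vamp3 was 5.40-fold higher in V/SVZ (2.43 ± 0.05, limma adjusted p = 3.96e-09), and Vamp2 was 2.92-fold higher in CP. By the brightest probe of each gene, that of Vamp3 was the largest difference towards V/SVZ among the 46 genes. A dimmer probe of Stx4a gave a larger one (3.50). Vamp1, a synaptobrevin best known from brainstem, spinal cord and motor nerve, measured -3.77, -3.72, -3.53 and -4.01 in V/SVZ and -4.03, -3.89, -3.95 and -4.07 in CP. Its layers overlapped through V/SVZ replicate 4 (0.22 ± 0.10, limma adjusted p = 0.0656), and without that array it was called higher in V/SVZ (0.31, limma adjusted p = 0.00776). Vamp4, which works in traffic between endosomes and the trans-Golgi, measured -0.37, -0.46, -0.43 and -0.56 in V/SVZ and -0.38, -0.50, -0.52 and -0.58 in CP. Those layers overlapped almost wholly (0.04 ± 0.06, limma adjusted p = 0.563), whereas a second Vamp4 probe was called higher in V/SVZ (0.30). Vamp7, of late endosomes and neurite growth, was higher in CP by a small difference (-0.30 ± 0.05), a call lost with normexp (-0.05, limma adjusted p = 0.373).

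Of the 7 target membrane SNAREs, 5 were called higher in CP and 2 in V/SVZ, with a median of -0.81. Stx1a, the syntaxin of synaptic release, measured -1.36, -1.33, -0.72 and -1.23 in V/SVZ and 0.98, 1.06, 1.09 and 1.07 in CP (-2.21 ± 0.14, limma adjusted p = 1.44e-06). Stx4a, a syntaxin of plasma membrane secretion in many cell types, measured 3.06, 3.03, 2.97 and 2.91 in V/SVZ and 1.89, 1.82, 1.48 and 1.62 in CP. Stx4a was 2.45-fold higher in V/SVZ (1.29 ± 0.09, limma adjusted p = 3.67e-06), and 5.27-fold when its probes were averaged, since its dimmer probe gave 3.50. Stx2, another plasma membrane syntaxin, was also higher in V/SVZ (0.90 ± 0.15). Stx3, known from ribbon synapses and from dendritic and apical membranes, measured -7.59, -6.84, -6.08 and -6.85 in V/SVZ, not above background on any array, and -4.91, -5.15, -4.06 and -4.38 in CP. It was called higher in CP by its fitted difference of -2.22 (limma adjusted p = 0.000533), which uses those V/SVZ values. It was at least 2.79-fold higher in CP on this scale, a bound that was not itself tested. The fitted fold with normexp was 2.11, so the bound depends on the background correction.

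Snap25 and Snap23 encode the neuronal and the widely expressed SNAP-25 type SNARE. Snap25 measured 2.14, 2.27, 2.61 and 2.04 in V/SVZ and 2.97, 3.20, 3.03 and 3.10 in CP (-0.81 ± 0.12, limma adjusted p = 0.0004). Snap23 by its brighter probe, made to NM_001177792, measured 1.30, 1.54, 1.91 and 1.34 in V/SVZ and 2.22, 2.55, 2.42 and 2.49 in CP (-0.90 ± 0.14, limma adjusted p = 0.000531). Both genes were thus higher in CP without overlap, and V/SVZ replicate 3 was the highest V/SVZ array for each. The dimmer Snap23 probe, made to NM_009222, measured -2.33, -2.36, -2.19 and -2.15 in V/SVZ and -4.19, -4.01, -4.06 and -4.14 in CP. It was called the opposite way, higher in V/SVZ (1.84), also without overlap, so the direction of Snap23 rests on the probe. Snap29, a SNARE of endosomes and autophagosomes, had a small difference (-0.18 ± 0.03) that its second probe turned to 0.27 and that was not called with median scaling (-0.09, limma adjusted p = 0.294).

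Both complexins, small proteins that bind the assembled SNARE complex, were higher in CP by different amounts. Cplx1 measured -0.49, -0.46, -0.40 and -0.26 in V/SVZ and 3.23, 3.22, 3.13 and 3.12 in CP, an 11.9-fold difference (-3.58 ± 0.06, limma adjusted p = 1.1e-09). Cplx2 measured 3.46, 4.15, 4.52 and 3.91 in V/SVZ and 4.97, 5.24, 5.02 and 5.02 in CP, a 2.08-fold difference (-1.05 ± 0.21, limma adjusted p = 0.0018). All 4 Cplx2 probes were called higher in CP, by differences from -1.05 to -0.48.

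Among the priming factors and SNARE regulators, 3 genes were called higher in CP and 1 in V/SVZ. Doc2b, a C2-domain calcium sensor linked to spontaneous and asynchronous release, measured -6.69, -6.54, -7.12 and -6.16 in V/SVZ and -0.89, -1.24, -1.11 and -1.19 in CP. It differed by -5.52 ± 0.19 (limma adjusted p = 4.42e-08), but was well above background on only 1 V/SVZ array, and its 45.9-fold difference became 13.4-fold with normexp. Unc13a measured -4.28, -4.10, -4.23 and -4.27 in V/SVZ and -2.01, -2.07, -2.17 and -2.27 in CP (-2.09 ± 0.07, limma adjusted p = 3.23e-08). Unc13b, encoding Munc13-2, measured 2.44, 2.53, 2.50 and 2.42 in V/SVZ and 2.14, 2.14, 2.20 and 2.15 in CP. It was slightly higher in V/SVZ, without overlap (0.31 ± 0.04, limma adjusted p = 7.74e-05). Stxbp5, or tomosyn, which binds syntaxin and SNAP-25 and limits release, was higher in CP (-2.36 ± 0.11).

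Active zone scaffolds gave 5 genes called higher in CP and 1 not called, with a median of -1.91. Bsn (bassoon) measured -0.40, -0.36, -0.31 and -0.38 in V/SVZ and 1.60, 1.58, 1.57 and 1.58 in CP (-1.94 ± 0.03, limma adjusted p = 1.09e-09). Pclo (piccolo), the other giant scaffold carried to new synapses with bassoon, measured 0.24, 0.41, 0.52 and -0.11 in V/SVZ and 2.18, 2.16, 2.16 and 2.17 in CP (-1.90 ± 0.13, limma adjusted p = 2.21e-06). Both were clearly apart between layers. The 4 Pclo probes were all called higher in CP but ranged widely: those made to NM_001110796 gave -1.90 and -0.65, and those made to NM_011995 gave -4.29 and -4.57, so the mean over probes was 7.23-fold instead of 3.74-fold. Erc2, or CAST, a scaffold that binds RIM and bassoon, measured 1.13, 1.15, 1.11 and 1.13 in V/SVZ and 3.55, 3.53, 3.44 and 3.44 in CP (-2.36 ± 0.04, limma adjusted p = 1.03e-09). Its 5.15-fold difference became 3.03-fold when both its probes were averaged.

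The RIM genes, whose products tether vesicles and calcium channels, differed among themselves. Rims1 measured -5.36, -4.83, -4.92 and -4.74 in V/SVZ and -3.23, -2.98, -2.96 and -3.01 in CP (-1.92 ± 0.14, limma adjusted p = 3.58e-06). It was well above background on only 3 V/SVZ arrays, and its 3.78-fold difference became 2.72-fold with normexp. Rims2 measured -2.90, -2.82, -2.84 and -3.09 in V/SVZ and -2.54, -2.46, -2.27 and -2.52 in CP (-0.47 ± 0.08, limma adjusted p = 0.000991). Neither overlapped between layers. Rims3, which encodes a short RIM, measured -5.08, -5.49, -4.70 and -4.47 in V/SVZ and -5.03, -5.18, -4.82 and -4.90 in CP, and its wide V/SVZ values enclosed those of CP (0.05 ± 0.21, limma adjusted p = 0.849).

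The 3 genes of SNARE disassembly were called higher in CP. Nsf, the ATPase that separates used SNAREs, had a difference of -1.02 ± 0.03. Napb, encoding the brain form of the SNAP adaptor, measured -0.48, -0.46, -0.44 and -0.45 in V/SVZ and 1.39, 1.41, 1.29 and 1.28 in CP (-1.80 ± 0.04, limma adjusted p = 4.06e-09). Napa, the form found in all tissues, measured 2.78, 2.83, 2.88 and 2.89 in V/SVZ and 3.14, 3.16, 3.29 and 3.23 in CP (-0.36 ± 0.05, limma adjusted p = 0.000149). Both lay apart between layers, and a second Napa probe was not called (-0.65, limma adjusted p = 0.214). Snap91, encoding the clathrin adaptor AP180 that retrieves vesicle proteins after fusion, measured -1.57, -1.67, -1.58 and -1.64 in V/SVZ and 0.64, 0.65, 0.59 and 0.68 in CP, a 4.77-fold difference (-2.25 ± 0.04).

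Whether related genes differed in their response to layer was tested on the log2 ratio of both genes within each array, which no scaling of the array can change. Of 15 pairs, 14 could be tested, each by a two-sided exact permutation test over 4 against 4 arrays, whose smallest p is 0.0286. In 12 pairs the ratio differed between layers at that smallest p (adjusted p = 0.0333 over the pairs), with no overlap of the arrays. In 5 of them (Vamp2 and Vamp3, Syt4 and Syt11, Stx1a and Stx4a, Unc13a and Unc13b, Syp and Sypl) the genes had already been called in opposite directions, so the ratio adds the size of the shift and no further evidence. The pairs were chosen with earlier results of these data known, and no share was taken over pairs of other genes. Single genes did not overlap between layers in 75.2% of all genes tested, so the count of 12 is not a result about related genes in particular. The ratio of Vamp2 to Vamp3 ran from 2.22 to 2.51 in V/SVZ and from 6.26 to 6.43 in CP, a 15.8-fold shift (-3.98 ± 0.07). Syt4 to Syt11 shifted by -3.92 ± 0.10, which lies within error of it, Stx1a to Stx4a by -3.50 ± 0.20 (-4.61 with the mean of probes), Cplx1 to Cplx2 by -2.52 ± 0.23 and Unc13a to Unc13b by -2.40 ± 0.07. In each of these pairs the first-named gene was relatively higher in CP. Syn1 to Syn2 shifted by -2.38 ± 0.20, Syp to Sypl by -1.97 ± 0.05, Rims1 to Rims3 by -1.96 ± 0.25, Rims1 to Rims2 by -1.45 ± 0.17 and Napb to Napa by -1.44 ± 0.07. The shift ran the other way for Vamp1 to Vamp2 (1.77 ± 0.12) and for Sv2a to Sv2b (3.52 ± 0.46), the latter a value that includes V/SVZ signals not above background and that was 1.37 with normexp. Rims1 passed the filter through CP and was well above background on only 3 V/SVZ arrays. With normexp its ratio shifted by -1.41 against Rims3 and by -0.96 against Rims2.

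**Figure D3:**
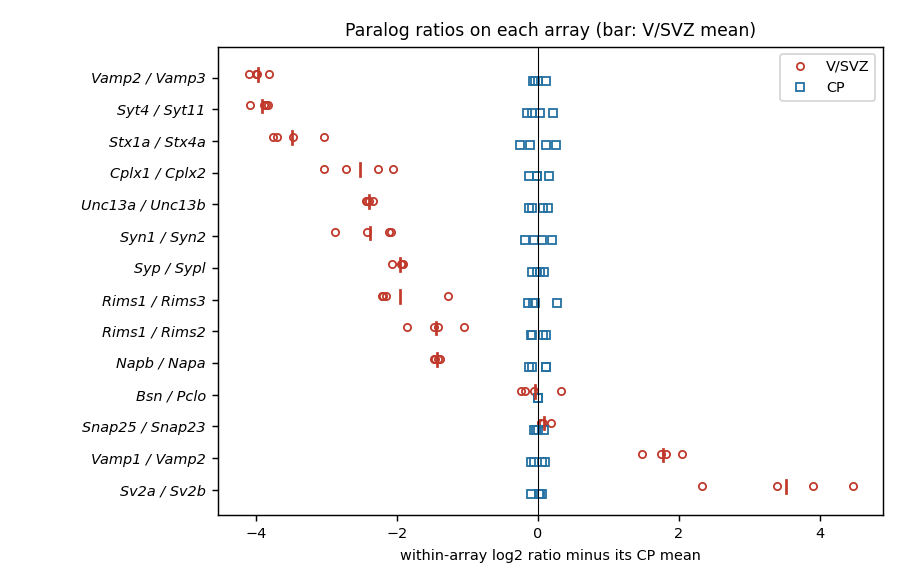
Log2 ratio of each pair on each array minus the mean of the CP arrays (x axis; circles are V/SVZ arrays, squares CP arrays, bars the V/SVZ mean). The V/SVZ arrays of 12 pairs lie apart from the CP arrays, and those of Bsn / Pclo and Snap25 / Snap23 lie near 0.

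In 2 pairs the ratio did not pass the test. Bsn to Pclo differed by -0.04 ± 0.13 (exact permutation p = 0.886), and Snap25 to Snap23 by 0.09 ± 0.05 (exact permutation p = 0.114, adjusted p = 0.123). A test that is not passed does not show that the paired genes respond alike. Both results rest on the probe used and on single arrays. With the mean of probes Bsn to Pclo shifted by 0.91 and Snap25 to Snap23 by -1.28, each at an exact permutation p of 0.0286. Without V/SVZ replicate 4, Bsn to Pclo passed the test (-0.16, exact permutation p = 0.0286, adjusted p = 0.0308), and so did Snap25 to Snap23 without CP replicate 1 (0.12, with the same p-values). With the dimmer Snap23 probe, chosen after the values were seen, the shift of Snap25 to Snap23 was -2.65 (exact permutation p = 0.0286), and with the dimmer Syn2 probe that of Syn1 to Syn2 was -4.38 (-3.38 with the mean of probes).

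Of the 46 genes, 14 had several tested probes. For 9 of them all probes were called in one direction, for 2 (Snap23 and Snap29) probes were called in opposite directions, and for 3 (Syn2, Vamp4 and Napa) calls and misses were mixed. Per probe, 44.4% of the 23860 tested on the array were called higher in CP and 35.2% higher in V/SVZ.

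**Figure D4:**
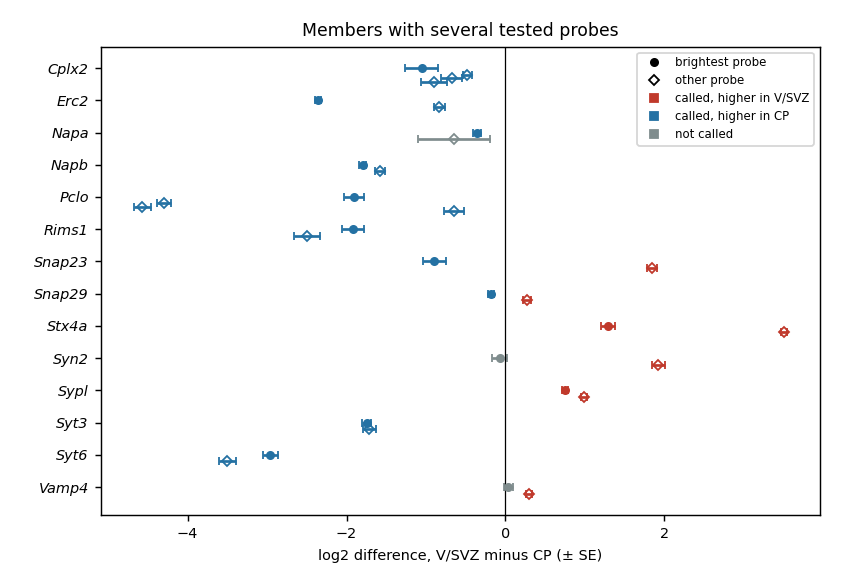
Difference between layers by each tested probe of the 14 genes that have several (x axis, log2, V/SVZ minus CP, ± SE; filled circles are the brightest probe, open diamonds the others). The 2 probes of Snap23 lie at -0.90 and 1.84, and the 4 probes of Pclo lie between -4.57 and -0.65.

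Another 109 genes of release and the vesicle cycle were listed for comparison. Of 94 tested, 63 (67%) were called higher in CP, against 44.6% of all genes, 21 (22.3%) higher in V/SVZ, against 35.0%, and 10 were not called. Their median was -0.52, and its distance from that of the 46 genes was not tested. The largest differences towards CP among genes measured on all arrays were those of Sh3gl2 (endophilin A1, which bends membrane at endocytosis; -4.36), Dnm3 (dynamin 3, which cuts vesicles free; -4.12), Ppfia4 (a liprin scaffold; -3.98), Rab3b (a vesicle GTPase; -3.44) and Apba1 (Mint1, a partner of Munc18; -3.40). Towards V/SVZ they were those of Stxbp6 (amisyn, a SNARE-binding protein; 3.41), Synpr (synaptoporin, a synaptophysin relative; 3.21), Cadps2 (a priming factor of dense-core vesicles; 2.37), Stxbp3 (a Munc18 that pairs with syntaxin 4; 2.13) and Syngr2 (a synaptogyrin of many tissues; 2.03). Of the 5 vesicle transmitter transporters tested, Slc17a7, the glutamate transporter VGLUT1, was higher in CP (-3.13), while Slc17a6 (VGLUT2; 1.87) and Slc17a8 (VGLUT3; 1.13) were higher in V/SVZ. Slc18a2, for monoamines (-0.84), and Slc32a1, for GABA (-0.33), were higher in CP.

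**Figure D5:**
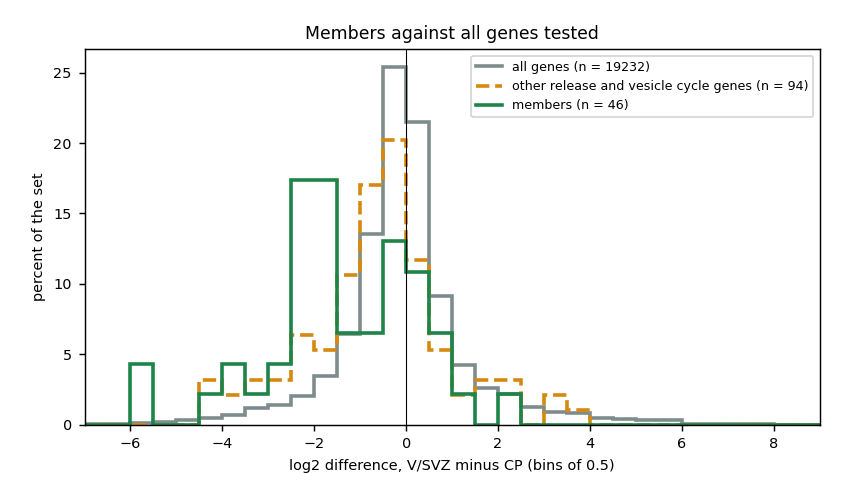
Distribution of differences between layers (x axis, log2, V/SVZ minus CP, in bins of 0.5; y axis, percent of the set) for the 46 genes of the release machinery, the 94 other release and vesicle cycle genes and all 19232 genes tested. The median is -1.54 for the first set, -0.52 for the second and -0.09 for all genes.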

How the data were processed

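Samples were grouped by the layer and number in their titles (4 V/SVZ, 4 CP). The intensity values were made by the authors with Agilent Feature Extraction 10.7.1.1, per the file headers: processed, background-subtracted signals per spot. A log2 table deposited by the authors covers 17163 gene probes and 36 of the 50 genes, and its filter and scaling between arrays are unknown. Its values had a median of 0 across the 8 columns in 99.8% of rows, and its column medians ran from -0.03 to 0.02. Its columns correlated with the array they are named for at -0.953 to -0.943 and matched the same-numbered array of the other layer (r = 1.00), so it served as an alternative with turned sign. No column was left unmapped (0).

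Here, spots of a probe were averaged as log2, leaving out control spots and outlier-marked spots (142 to 258 per array), and each array's 75th percentile (signals of 2113 to 2566) was subtracted. A probe was tested where well above background on all 4 arrays of a layer, with values on at least 3 of each. Accessions were named through a RefSeq table (GRCm38.p6): 26761 of 39429 probes had a symbol. The headers name build mm9, and only RefSeq windows carry coordinates. The brightest tested probe stands for its gene. Layers were compared with limma 3.58.1 (lmFit, eBayes) in R 4.3.3. The number of arrays limits the precision. An "at least" fold divides the bright layer's mean by a floor, which on each array is the dimmest signal that passed the background test, or the probe's own value if higher, averaged over the dim layer. The scripts were tested on simulated data. The genes, lists, pairs and tests were chosen with earlier results of these data known. Values on all arrays are given for the largest called difference of each role, the called gene furthest against its role's majority, genes not called and paired genes. Other release genes are named where they had the 5 largest called differences in a direction and were above background on all 8 arrays, or where a count was 5 or fewer. Syt1 was added after its values were seen.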

Additional observations from a re-analysis of the deposited data

Results flagged for a closer look

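In 98 groups of 4 arrays (each of 49 genes in each layer), 2 held a value far from the other 3, where chance gives about 1 group in 20. Syn3 was lowest in V/SVZ replicate 1 at -4.86, while the other V/SVZ arrays lay between -4.73 and -4.71. Unc13b was highest in CP replicate 3 at 2.20, while the other CP arrays lay between 2.14 and 2.15. Both genes kept no overlap between layers.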

How the results depend on the processing

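Counts of called genes kept within 1.5 times under each setting run. The number of listed genes tested varied with the setting. Counts higher in CP ran from 26 (the authors' deposited table, with 36 genes tested) to 36 (no filter on dim probes, 49 tested). Counts higher in V/SVZ ran from 6 to 9, and the 9 of the deposited table were out of 36 tested. Leaving out 1 array at a time, with 46 tested, gave 35 higher in CP and 6 to 7 higher in V/SVZ. The median difference (-1.54) was -1.45 with median scaling, -1.47 with quantile normalization, -1.61 with spike-in scaling, -1.16 with normexp, -1.21 with no filter on dim probes (49 genes) and -1.05 with probes above background on all 8 arrays (41 genes). The median over all genes was -0.09, and -0.16 to -0.01 under the other scalings and normexp. Snap23, Snap29 and Syn2 changed direction with the probe. Snap23 went to 0.47 with the mean of probes, 1.85 in the deposited table and 1.84 by its second probe. Snap29 went to 0.046 and 0.27 with the mean and the second probe. Syn2 went to 0.93, 1.93 and 1.92 with the mean, the deposited table and the second probe. The second-probe setting was chosen after seeing the data. Calls were lost for Napa with the mean of probes (-0.50), Snap29 with median scaling and Vamp7 with normexp, and gained in 8 settings for Vamp1 and Vamp4. The count of pairs past the test (12 of 14) ranged from 9 (of 10 or 11 testable) to 14, and from 12 to 13 when 1 array was left out. With the replicate number as a block, 35 genes were higher in CP and 7 in V/SVZ, Vamp1 being added (limma adjusted p = 0.0305). The numbers were not taken as pairing, a choice that these data do not settle. Same-numbered arrays correlated in their deviations at 0.339, 0.308, 0.0974 and 0.204, but V/SVZ replicate 3 correlated best with CP replicate 2. The dimmer Napa probe followed the number, and Col1a1 was lowest in replicate 3 of each layer (-4.33 in V/SVZ, -4.34 in CP). The number was also the array's position on its slide, so a shared source and a shared position cannot be told apart. For the pairs, a block by number leaves 4 differences, whose exact sign-flip test cannot go below 0.125, so it was not used for calls. By number, Snap25 to Snap23 differed by 0.10, 0.08, 0.09 and 0.08 (exact sign-flip test p = 0.125, the smallest possible). Bsn to Pclo differed by -0.07, -0.18, -0.24 and 0.32 (exact sign-flip test p = 0.875). Trend and array weights have no place in the pair test. Genes near background carry the least certain folds.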

Other observations

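The dimmer Napa probe differed more by replicate number than by layer. It measured -1.67 and -1.63 in V/SVZ replicates 1 and 2 and -0.40 and -0.46 in replicates 3 and 4, and in CP it measured -1.06, -0.97, 0.25 and 0.21. At each number it was lower in V/SVZ, with differences of -0.61, -0.66, -0.65 and -0.67. The brighter Napa probe was also lower in replicates 1 and 2 than in 3 and 4 of both layers, by much less (2.78, 2.83, 2.88 and 2.89 in V/SVZ, 3.14, 3.16, 3.29 and 3.23 in CP).

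Snap25 and the brighter Snap23 probe varied together within each layer. Their V/SVZ levels had SDs of 0.25 and 0.28 (n = 4), while the SD of their log2 ratio was 0.07 in V/SVZ and 0.06 in CP. This profile was not particular to the pair. Like them, Cplx2, Rab3c, Dnajc5 and Stxbp2 by their brightest probes were highest in V/SVZ replicate 3 and CP replicate 2, and lowest in CP replicate 1. Not all Cplx2 probes shared it: a dimmer one measured 3.72, 3.75, 3.56 and 3.54 in V/SVZ replicates 1 to 4.

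The SD over 4 arrays was larger in V/SVZ than in CP for 29 of the 46 genes, with medians of 0.09 and 0.07, and over all genes tested the medians were 0.09 and 0.08.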
